A study of Mus musculus with 2 samples.

Results

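The milk protein genes of the mouse were followed in single-cell ATAC-seq of mammary gland organoids, an assay in which the transposase Tn5 cuts open chromatin and the cuts of single nuclei are counted in peaks. The 8 genes were the 5 caseins Csn1s1, Csn2, Csn1s2a, Csn1s2b and Csn3, which lie together on chromosome 5, the whey acidic protein gene Wap, the α-lactalbumin gene Lalba and the glycoprotein gene Glycam1. A peak belonged to a gene if it overlapped the gene body or lay within 20 kb of one of its transcription start sites (TSS), and the casein cluster was also taken as 1 locus with 20 kb on either side. Peaks of both libraries that overlapped were merged into regions. By this rule 57 of the 275294 merged regions were milk protein gene regions, 43 of them by the gene windows alone. A peak of both libraries was present in 44 of these 57, a DOX peak only in 6 and an EtOH peak only in 7. Over the whole series 174940 of the 275294 regions had a peak of both.

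Both groups were organoids from adult C57BL/6J mice of the genotype shTRPS1.34 ki/+; CAG-rtTA3 tg/+, so the control carried the same alleles. The shRNA against Trps1 and a green fluorescent marker stand under a doxycycline-responsive promoter in the Col1a1 locus, and the ubiquitous CAG promoter drives the transactivator rtTA3. All organoids grew in Matrigel with Neuregulin, Noggin and R-spondin, with no prolactin among the listed additions. Doxycycline at 0.1 µg/ml (DOX) or ethanol (EtOH) was present for 7 days. Only 1 shRNA line was used here, cells of several mice were pooled before loading (the sources differ on their number), and each group had 1 library. Induction of the shRNA and doxycycline itself cannot be told apart, and neither can the treatment and the library. Accessibility does not measure the knockdown of Trps1, which was not assessed in these files.

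Caseins form the micelles of milk: the calcium-sensitive caseins of Csn1s1, Csn2, Csn1s2a and Csn1s2b make up their bulk, and κ-casein, the product of Csn3, stabilises them. α-Lactalbumin is the regulatory subunit of lactose synthase, and whey acidic protein is a main whey protein of rodents. The genes are classic targets of prolactin, which signals through its receptor, the kinase JAK2 and the transcription factors STAT5A and STAT5B, together with glucocorticoids and with factors of alveolar cells such as ELF5 and GATA3. Luminal progenitors, which give rise to alveolar cells, hold part of this program before pregnancy, whereas hormone-sensing luminal cells, basal cells and immune cells are not known as its main site. TRPS1 is an atypical GATA factor that acts as a repressor.

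The DOX library held 3071 nuclei and the EtOH library 3104, with a median of 75296 and 66789.5 counts per nucleus, and 23 barcodes occurred in both. Levels are CPM, a library's counts scaled to 1000000 counts in the 174940 shared regions, ratios are log2 of DOX over EtOH, and all intervals are 95% intervals for counting error only, since no replicate exists to test a difference. The median log2 ratio of the shared regions with at least 100 counts was −0.13. Nuclei were clustered without the milk protein gene regions. The immune-like clusters made up 41.8% of the nuclei in DOX and 9.12% in EtOH, and the 6 immune markers summed to 244 CPM in DOX and 108 CPM in EtOH, with 5 of 6 higher in DOX and none at 0. Outside these clusters the sums were 81.7 and 78.8 CPM. Because this difference moved with most of the results, each main value is given over all nuclei and outside the immune-like clusters, where 1788 DOX and 2821 EtOH nuclei remained. The epithelial markers, 6 genes, summed to 408 and 407 CPM there, with none at 0 in either library. Lum of the fibroblast and Lep of the adipocyte markers were at 0 in both libraries.

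Sequence at these loci is shown for the control regions on which the results below turn, from the RefSeq genome GRCm38.p6, 5′ to 3′. Capitals mark 3 kinds of word on either strand: the STAT5-type word TTCNNNGAA (GAS), GATA preceded by A or T and followed by A or G (GATA word), and the ETS core GGAAG, the last being the kind of word ELF5 binds. A match is a description of the letters and not a bound site. The proximal promoters of Csn2 and Csn3 are the 250 bases before the gene start, taken from RefSeq for Csn2 and from GENCODE M21 for Csn3. The other windows are the 300 central bases of accessible regions, on the plus strand. Csn2 was chosen as a casein gene without any region, Csn3 as the only casein with regions at its start, the Wap and Lalba regions as those at the gene starts, and the others as the deepest region or the regions with the highest ratio.
Csn2 promoter, chr5:87699426-87699675, minus strand, 1 GAS word 93 bases before the start: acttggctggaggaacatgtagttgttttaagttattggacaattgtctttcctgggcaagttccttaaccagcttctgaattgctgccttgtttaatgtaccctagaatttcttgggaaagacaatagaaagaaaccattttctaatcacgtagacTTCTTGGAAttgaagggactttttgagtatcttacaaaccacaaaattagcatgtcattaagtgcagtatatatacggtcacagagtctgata
Csn3 promoter, chr5:87925329-87925578, plus strand, 1 GATA word: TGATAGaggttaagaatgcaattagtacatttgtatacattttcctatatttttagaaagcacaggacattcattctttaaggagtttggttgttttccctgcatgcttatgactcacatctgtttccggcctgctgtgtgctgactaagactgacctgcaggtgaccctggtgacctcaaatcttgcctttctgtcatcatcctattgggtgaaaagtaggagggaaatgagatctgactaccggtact
Csn3 upstream region, chr5:87924420-87924719, 2 GAS words: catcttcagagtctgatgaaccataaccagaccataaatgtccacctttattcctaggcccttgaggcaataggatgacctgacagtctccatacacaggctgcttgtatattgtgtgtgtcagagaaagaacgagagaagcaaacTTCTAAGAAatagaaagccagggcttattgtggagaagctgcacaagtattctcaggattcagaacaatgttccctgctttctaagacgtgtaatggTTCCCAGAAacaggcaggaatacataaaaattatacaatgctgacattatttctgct
Deepest region of the casein cluster, chr5:87870127-87870426, 2 GATA and 2 ETS words: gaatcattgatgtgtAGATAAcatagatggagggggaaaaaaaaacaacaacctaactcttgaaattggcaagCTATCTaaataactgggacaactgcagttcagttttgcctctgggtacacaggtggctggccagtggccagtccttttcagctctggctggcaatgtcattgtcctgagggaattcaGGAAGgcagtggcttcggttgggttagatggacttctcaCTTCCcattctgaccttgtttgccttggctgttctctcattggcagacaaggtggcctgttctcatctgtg
Region past Csn3 with the highest ratio, chr5:87943460-87943759, 1 GATA word: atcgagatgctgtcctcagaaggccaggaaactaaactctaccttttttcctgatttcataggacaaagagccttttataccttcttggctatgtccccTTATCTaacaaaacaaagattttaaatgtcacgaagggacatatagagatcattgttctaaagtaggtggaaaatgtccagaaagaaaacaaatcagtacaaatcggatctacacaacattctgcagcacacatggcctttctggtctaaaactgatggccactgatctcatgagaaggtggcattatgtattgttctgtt
Wap upstream region, chr11:6639112-6639411, 1 GAS word and 4 ETS words, of which 1 pair overlapped: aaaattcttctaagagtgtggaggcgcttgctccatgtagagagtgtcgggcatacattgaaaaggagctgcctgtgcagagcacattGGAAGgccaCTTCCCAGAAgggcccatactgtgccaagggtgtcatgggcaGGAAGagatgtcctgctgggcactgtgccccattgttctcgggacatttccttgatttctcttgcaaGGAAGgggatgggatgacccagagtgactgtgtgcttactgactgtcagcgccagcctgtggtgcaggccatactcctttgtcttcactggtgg
Lalba start region, chr15:98482718-98483017, 1 GAS word and 4 ETS words, with 2 overlapping pairs: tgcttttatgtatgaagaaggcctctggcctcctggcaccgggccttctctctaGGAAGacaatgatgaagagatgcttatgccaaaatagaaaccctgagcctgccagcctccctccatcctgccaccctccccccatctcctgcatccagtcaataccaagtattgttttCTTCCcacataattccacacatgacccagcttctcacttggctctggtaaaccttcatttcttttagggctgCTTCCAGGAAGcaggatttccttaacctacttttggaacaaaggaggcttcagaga
Region past Glycam1 with the highest ratio, chr15:103549808-103550107, 4 ETS words: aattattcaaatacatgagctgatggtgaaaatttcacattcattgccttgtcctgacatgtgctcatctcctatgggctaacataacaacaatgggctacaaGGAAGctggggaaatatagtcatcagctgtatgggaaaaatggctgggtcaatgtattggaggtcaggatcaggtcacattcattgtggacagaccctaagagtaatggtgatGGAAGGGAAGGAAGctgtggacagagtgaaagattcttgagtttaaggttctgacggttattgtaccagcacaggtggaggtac

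The GAS word stood in the central 300 bases of 8 of the 44 shared milk protein gene regions (18.2%), against 10.1% of all 174940 shared regions. A GATA word stood in 17 (38.6%, against 34.5%) and the ETS core in 29 (65.9%, against 71.1%). Of the 250 bases before the gene start, available for 7 of the 8 genes, 3 held a GAS word, those of Csn1s1, Csn2 and Glycam1, while 2 held a GATA word and 3 the ETS core. Among 32851 RefSeq promoters of this length 7.02% held one, 26.5% held a GATA word and 64.1% the ETS core.

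Over all nuclei the casein cluster was less accessible in DOX than in EtOH. Its 28 shared regions between chr5:87646208 and chr5:87952665 held 13707 counts in DOX, 64.5 CPM (63.0 to 66.1), and 17043 counts in EtOH, 84.9 CPM (83.1 to 86.7). The log2 ratio was −0.40 (−0.44 to −0.35), a 1.32-fold lower level in DOX. The counts came almost entirely from nuclei outside the immune-like clusters, 98.5% in DOX and 99.5% in EtOH. In those nuclei the direction was the opposite: DOX had 104 CPM (102 to 107) and EtOH 91.0 CPM (89.0 to 92.9), a log2 ratio of 0.20 (0.15 to 0.24). The makeup of this set also differed, here and below. Hormone-sensing luminal-like clusters held 103 of its 1788 DOX and 1005 of its 2821 EtOH nuclei. The locus was less open in them, at 61.2 and 53.9 CPM, so the ratio of 0.20 does not compare sets of like makeup. In the immune-like nuclei the locus was at 2.48 CPM in DOX and 5.67 CPM in EtOH. The lower level over all nuclei thus stood beside a 41.8% share of nuclei in which the locus was nearly closed.

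**Figure D1:**
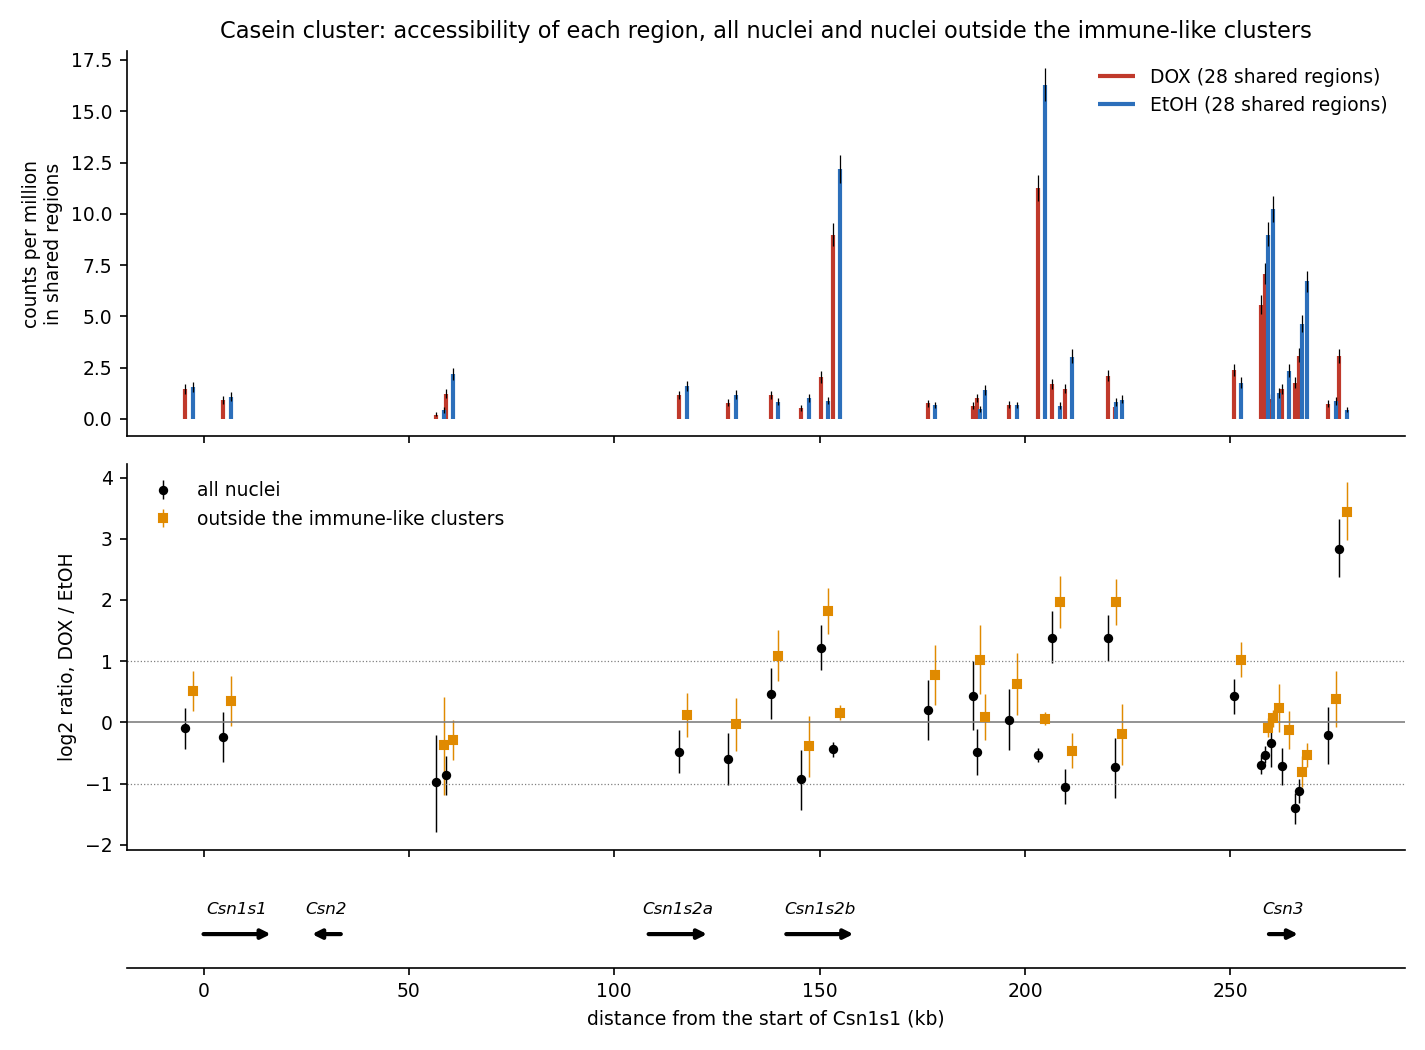
Accessibility along the casein cluster by distance from the start of Csn1s1 (kb): top, CPM of each of the 28 shared regions in DOX and EtOH with 95% Poisson intervals; middle, log2 ratio of DOX over EtOH with 95% intervals over all nuclei and outside the immune-like clusters (dotted lines mark 2-fold); bottom, gene bodies with their direction. The deepest regions lie at and before Csn3 and in Csn1s2b, and no region lies over Csn2. Leaving out the immune-like clusters raised the ratio of all 28 regions, as the scaling requires where so few counts are immune-like.

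The accessible chromatin of the cluster was concentrated in few places. The 4 deepest regions held 50.9% of the casein counts in DOX and 56.1% in EtOH, and the Csn3 window held 40.4% and 43.8%. The deepest region, chr5:87869845-87870707, lay in intergenic sequence 55.3 kb upstream of Csn3, between Prr27 and Odam, and had 11.2 CPM (10.6 to 11.9) in DOX and 16.3 CPM (15.5 to 17.1) in EtOH. Prr27 encodes a proline-rich protein and Odam a protein associated with tooth enamel formation, and they are the only other protein-coding genes in the window. The next, chr5:87819868-87820769, lay in an intron of Csn1s2b, 12.2 kb past its start, with 8.98 CPM (8.42 to 9.57) in DOX and 12.2 CPM (11.5 to 12.9) in EtOH. Without the immune-like nuclei the ratio of the first was 0.06 (−0.05 to 0.17) and that of the second 0.16 (0.04 to 0.28).

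Among the calcium-sensitive caseins the gene starts themselves showed no region. Csn1s1 (αs1-casein) had 2 shared regions, 3.6 kb upstream and 5.7 kb past its start, with 2.34 CPM in DOX and 2.61 CPM in EtOH together. Their ratio of −0.16 (−0.41 to 0.10) held 0, and outside the immune-like clusters it was 0.45 (0.19 to 0.70). Csn2 (β-casein) had no peak of either library in its gene body or within 20 kb of a TSS, the only member without one. Csn1s2a had 3 shared regions and 1 EtOH peak, in an intron, with 3.06 CPM in DOX and 3.59 CPM in EtOH over the shared ones and a ratio of −0.23 (−0.45 to −0.01). Leaving these nuclei out gave 0.37 (0.15 to 0.59).

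Csn1s2b had 5 shared regions, with 13.5 CPM (12.8 to 14.2) in DOX and 16.0 CPM (15.3 to 16.8) in EtOH and a ratio of −0.25 (−0.36 to −0.15). Its regions did not move together. The region over an exon 9.2 kb past the start, chr5:87816790-87817836, had 2.02 CPM (1.76 to 2.31) in DOX and 0.87 CPM (0.70 to 1.07) in EtOH, a 2.32-fold higher level in DOX. The region 4.5 kb past the start, chr5:87812164-87813089, had 0.53 CPM (0.40 to 0.68) in DOX and 1.01 CPM (0.82 to 1.22) in EtOH, with a ratio of −0.93 (−1.43 to −0.45). In nuclei outside the immune-like clusters the first stood at 1.81 (1.45 to 2.19) and the second at −0.39 (−0.90 to 0.10).

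Csn3 (κ-casein) was the most accessible casein gene and the only one with shared regions within 1 kb of its start. The region over its first exon, chr5:87925174-87925991, had 7.07 CPM (6.57 to 7.59) in DOX and 10.2 CPM (9.60 to 10.9) in EtOH. The region 1.0 kb upstream, chr5:87924115-87925024, in which the 2 GAS words stand, had 5.57 CPM (5.13 to 6.04) in DOX and 8.99 CPM (8.41 to 9.59) in EtOH. Together their ratio was −0.60 (−0.71 to −0.50) over all nuclei and −0.01 (−0.11 to 0.10) outside the immune-like clusters.

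The window of Csn3 held the widest range of ratios of any casein. Over all nuclei its 9 shared regions summed to 26.0 CPM in DOX and 37.2 CPM in EtOH, and it also had 1 DOX peak and 1 EtOH peak. The region over the end of the gene, chr5:87932411-87933261, had 1.75 CPM (1.51 to 2.02) in DOX and 4.64 CPM (4.23 to 5.08) in EtOH, the lowest ratio of the casein cluster at −1.41 (−1.66 to −1.16). It stayed at −0.80 (−1.06 to −0.55) outside the immune-like clusters, and its neighbour chr5:87933447-87934359 stood at −0.54 (−0.73 to −0.34) there. The intergenic region 18.0 kb past the Csn3 start, chr5:87943137-87944082, went the other way. It had 650 counts in DOX, 3.06 CPM (2.74 to 3.41), and 86 counts in EtOH, 0.43 CPM (0.31 to 0.58), a 7.14-fold higher level and the highest ratio of the milk protein genes at 2.84 (2.37 to 3.33). Of its DOX counts 0.62% came from immune-like nuclei.

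Over all nuclei 4 of the 28 casein regions (14.3%) were at least 2-fold higher in DOX, against 13.0% of all shared regions. At least 2-fold lower were 3 (10.7%), against 13.4%. Besides the region past Csn3, the higher ones were that in Csn1s2b and 2 others. These were the region 51.8 kb upstream of Csn3, with a ratio of 1.39 (0.97 to 1.82), and the region over an exon of Odam. The latter lay 38.2 kb upstream of Csn3, with 1.38 (1.00 to 1.76). With the immune-like nuclei left out the last 2 stood at 1.96 (1.54 to 2.40) and 1.96 (1.59 to 2.35). The cluster had 5 EtOH peaks and 1 DOX peak without a partner. Thus 28 of its 34 regions were shared, against 174940 of 275294 over the whole series. The deepest of the EtOH peaks was that in the Csn1s2a intron, 0.69 CPM (0.54 to 0.88), and the DOX peak, 11.1 kb past the Csn3 start, had 0.91 CPM (0.74 to 1.11). A library without a peak has no deposited count for that place, so these regions have no ratio.

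Wap lies on chromosome 11 between Tbrg4 and Ramp3, and the promoters of both neighbours fall into its window. Summed over the window, 7 shared regions gave 67.2 CPM in DOX and 56.3 CPM in EtOH, of which 41.6 and 36.4 CPM belonged to the region over the Tbrg4 start. The single shared region near the Wap start, chr11:6638813-6639710, lay 0.6 kb upstream and had the opposite direction. It had 1.52 CPM (1.30 to 1.78) in DOX and 3.46 CPM (3.11 to 3.85) in EtOH, a 2.27-fold lower level in DOX with a ratio of −1.18 (−1.46 to −0.91). Outside the immune-like clusters the ratio was −0.78 (−1.08 to −0.49). The highest ratio of the window was that of chr11:6627633-6629093, 10.3 kb past the Wap start and 1566 bases from the nearest TSS of Tbrg4, at 2.30-fold higher in DOX. In it 71.0% of the DOX counts came from immune-like nuclei, and its ratio outside them was 0.15 (−0.07 to 0.36). An EtOH peak without partner lay over an exon of Wap with 1.04 CPM (0.85 to 1.26) and another 8.5 kb upstream with 1.12 CPM (0.92 to 1.35), and the 1 DOX peak without partner lay in Tbrg4.

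Lalba, on chromosome 15, showed the lowest ratio among the starts of the milk protein genes. Its start region, chr15:98482412-98483322, covers the first exon and the sequence before it and had 1111 counts in DOX, 5.23 CPM (4.80 to 5.68), and 3426 counts in EtOH, 17.1 CPM (16.3 to 17.9). The level in DOX was 3.26-fold lower, with a ratio of −1.71 (−1.85 to −1.57). Of the counts 2.79% in DOX and 0.58% in EtOH came from immune-like nuclei, and outside these the ratio was −1.13 (−1.27 to −0.99). The region 9.8 kb upstream of Lalba, chr15:98492066-98492932, which covers the start of the olfactory receptor gene Olfr279, was at −1.85 (−2.20 to −1.51) over all nuclei and at −1.65 (−2.05 to −1.27) outside the immune-like clusters. Both were thus lower in DOX by either count, unlike the sum of the casein cluster.

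A region 1.8 kb upstream of Lalba, chr15:98484033-98484946, had 5.24 CPM (4.81 to 5.69) in DOX and 2.92 CPM (2.60 to 3.28) in EtOH, the highest ratio of the window at 0.84 (0.63 to 1.05). It was open in immune-like nuclei, which gave 93.8% of its counts in DOX and 65.4% in EtOH, at 12.6 CPM in DOX and 26.9 CPM in EtOH. Within the immune-like nuclei the ratio was −1.10 (−1.34 to −0.85) and outside them −1.03 (−1.63 to −0.46). The direction over all nuclei was therefore the reverse of that within either set. DOX peaks without a partner, 2 in number, lay 6.0 kb past and 6.3 kb upstream of the Lalba start, the deeper at 0.68 CPM (0.53 to 0.86).

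Glycam1, also on chromosome 15, encodes a mucin-like glycoprotein of milk that is known from lymph node vessels as well. Its window summed to 23.1 CPM (22.2 to 24.1) in DOX and 10.0 CPM (9.39 to 10.6) in EtOH, a ratio of 1.21 (1.10 to 1.32). The region 15.1 kb past its start, chr15:103549529-103550386, carried most of this, with 13.3 CPM (12.7 to 14.0) in DOX and 2.57 CPM (2.27 to 2.90) in EtOH. Of its counts 98.0% in DOX and 90.7% in EtOH came from immune-like nuclei, where the 2 libraries stood at 33.4 CPM (31.7 to 35.2) and 32.8 CPM (28.7 to 37.3). Outside the immune-like clusters the window had 6.25 CPM (5.66 to 6.89) in DOX and 6.71 CPM (6.19 to 7.26) in EtOH, a ratio of −0.10 (−0.29 to 0.08). The lowest ratio of the window was −0.68 (−1.18 to −0.18), 12.0 kb upstream of the start. A DOX peak over an exon of Glycam1, 0.7 kb past its start, had 172 counts, 82.0% of them from immune-like nuclei, and the other DOX peak without a partner, 3.3 kb past the start, had 0.89 CPM (0.72 to 1.09).

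**Figure D2:**
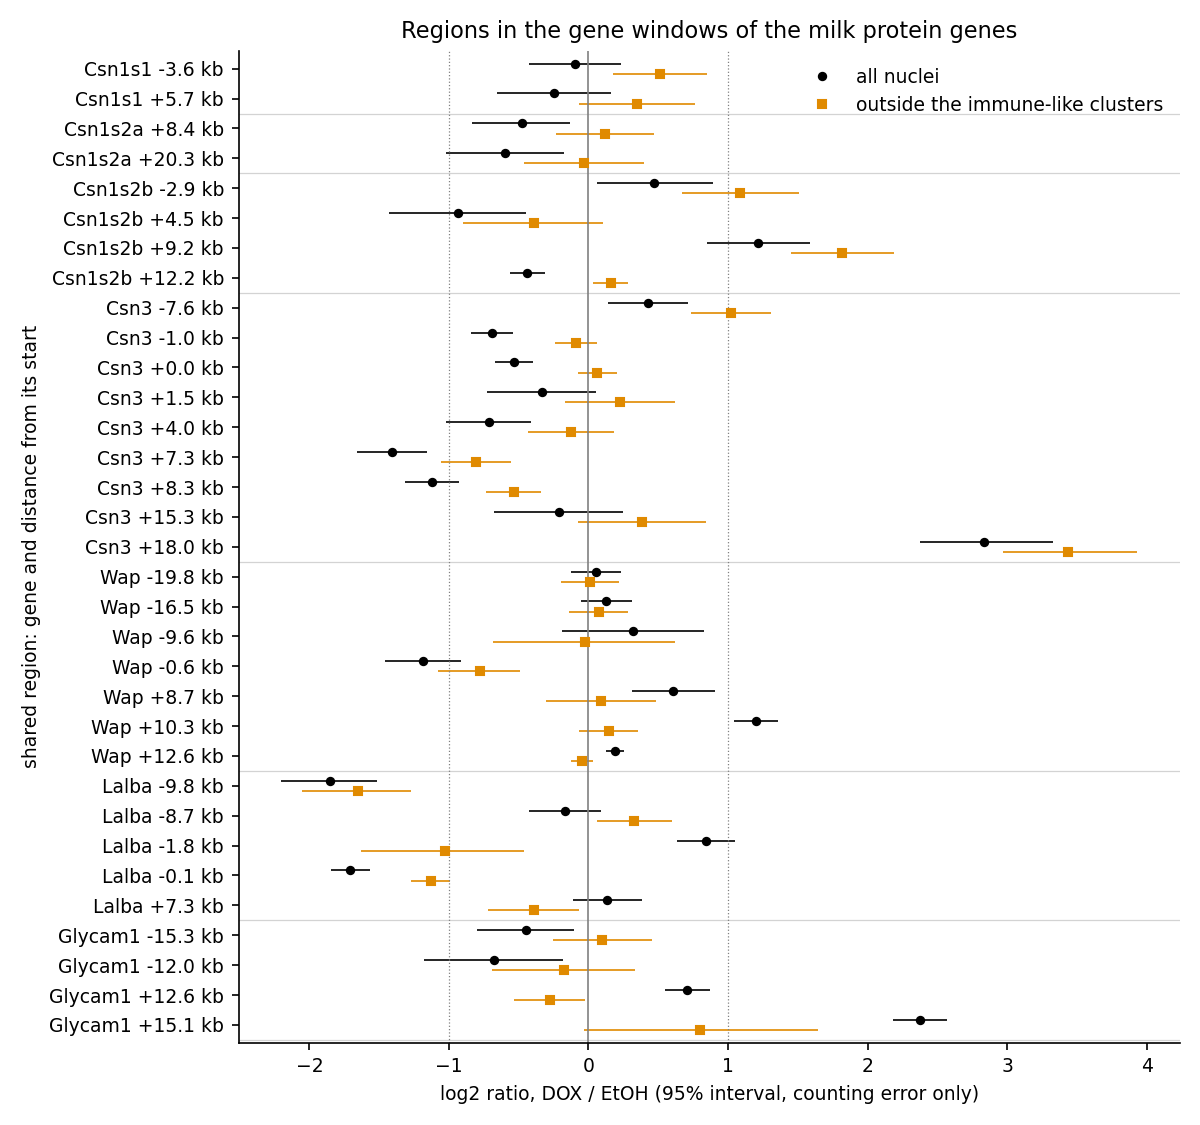
Log2 ratio of DOX over EtOH with 95% intervals for each shared region in the gene windows, named by its nearest milk protein gene and the signed distance from that gene's start, over all nuclei (circles) and outside the immune-like clusters (squares); dotted lines mark 2-fold. The regions at the starts of Lalba (−1.71 and −1.13) and Wap (−1.18 and −0.78) stayed below 0 in both sets, the highest Glycam1 region moved from 2.37 to 0.80, and the region 18.0 kb past the Csn3 start stayed above 2-fold.

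Clusters showed where the milk protein loci were open. Cluster 1, luminal progenitor-like by its markers, held 57 DOX and 1647 EtOH nuclei. The markers were Kit, Elf5, Cd14, Aldh1a3, Ltf, Trf, Lbp and Lcn2, and 5 of 8 were above the other nuclei (median log2 fold 0.53). All but Kit and Aldh1a3 are also among the lactation genes listed below, so the name rests in part on such genes. Cluster 2 held 1361 DOX and 8 EtOH nuclei. Markers of luminal progenitor, hormone-sensing and basal cells were all above the other nuclei in it (median log2 folds of 0.25, 0.33 and 0.60). In each of these lists 6 of 8 markers were above the other nuclei. Basal markers led by the median only. Their lead over the hormone-sensing markers fell just short of the 0.3 required for a name, a limit set after seeing the marker values. The cluster was therefore left unnamed. Clusters 4 and 5 were hormone-sensing luminal-like, clusters 3 and 7 immune-like, cluster 6 was unnamed with basal and fibroblast markers at 0.88 and 1.01, and cluster 8 had few counts per nucleus. The name of cluster 1 depended on the clustering: at a finer resolution 480 of the EtOH and 22 of the DOX nuclei were luminal progenitor-like. With each library clustered alone, 478 EtOH and 0 DOX nuclei were luminal progenitor-like, and 988 EtOH and 0 DOX nuclei hormone-sensing luminal-like. DOX nuclei thus bore these names only when clustered together with EtOH nuclei. As clusters 1 and 2 were each almost all of 1 library, cluster and library cannot be told apart in them.

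The casein cluster was most accessible in cluster 1, with 131 CPM (114 to 149) in its DOX and 122 CPM (119 to 125) in its EtOH nuclei, which did not differ beyond counting error (ratio 0.10, −0.10 to 0.29). The DOX nuclei of cluster 2 came next at 114 CPM (111 to 117). The hormone-sensing luminal-like nuclei stood at 61.2 CPM in DOX and 53.9 CPM in EtOH, a ratio of 0.18 (−0.01 to 0.38), and the immune-like nuclei at the bottom. Cluster 1 gave 74.0% of the casein counts of EtOH, and cluster 2 gave 82.5% of those of DOX. In cluster 6 the locus had 68.1 CPM (62.7 to 73.7) in DOX and 39.5 CPM (34.3 to 45.3) in EtOH, a ratio of 0.78 (0.55 to 1.02).

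The starts of Csn3, Lalba and Wap were more narrowly open than the casein locus as a whole. In the EtOH nuclei of cluster 1 the Lalba start had 30.5 CPM (29.0 to 32.0), against 2.43 CPM in the hormone-sensing luminal-like EtOH nuclei. The corresponding values were 31.9 CPM and 6.02 CPM at the Csn3 start and 6.23 CPM and 0.46 CPM at the Wap start. The DOX nuclei of cluster 2 had 9.42 CPM (8.59 to 10.3) at Lalba, 23.9 CPM (22.5 to 25.3) at Csn3 and 2.45 CPM (2.04 to 2.93) at Wap, each below the EtOH nuclei of cluster 1 with intervals that did not overlap. The 57 DOX nuclei inside cluster 1, in contrast, had 26.5 CPM (19.4 to 35.3) at Lalba, 33.6 CPM (25.6 to 43.4) at Csn3 and 4.89 CPM (2.17 to 9.45) at Wap, and their ratios to the EtOH nuclei of the same cluster all held 0 (−0.66 to 0.22 for Lalba). These nuclei were grouped with the EtOH nuclei for their likeness over the rest of the genome, so they are no sample of the DOX nuclei at large. In cluster 6 Lalba was at 2.55 CPM (1.61 to 3.85) in DOX and 7.11 CPM (4.99 to 9.82) in EtOH, a ratio of −1.48 (−2.30 to −0.68).

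The region 18.0 kb past Csn3 was open almost entirely in cluster 2. Of its 650 DOX counts 615 lay there, at 6.18 CPM (5.51 to 6.92), and cluster 6 had 1.42 CPM (0.74 to 2.45) in DOX with 0 EtOH counts. In cluster 1 it was at 1.15 CPM (0.14 to 4.15) in DOX and 0.68 CPM (0.47 to 0.94) in EtOH. The region in Csn1s2b with the 2.32-fold higher level was not of this kind. It was nearly closed in cluster 1, at 0.37 CPM (0.22 to 0.57) in EtOH, and open in the hormone-sensing luminal-like cluster 4, at 3.72 CPM (2.03 to 6.24) in DOX and 1.51 CPM (0.98 to 2.22) in EtOH, as well as in cluster 2, at 3.19 CPM (2.71 to 3.72). The region over the Odam exon had the same pattern, with 0.15 CPM in the EtOH nuclei of cluster 1, 2.19 CPM in those of cluster 4 and 3.37 CPM in the DOX nuclei of cluster 2. In cluster 6 the Csn1s2b region had 4.54 CPM (3.24 to 6.18) in DOX and 0.88 CPM (0.26 to 2.13) in EtOH, and the Odam region 4.65 CPM (3.34 to 6.31) and 0.39 CPM (0.05 to 1.41).

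**Figure D3:**
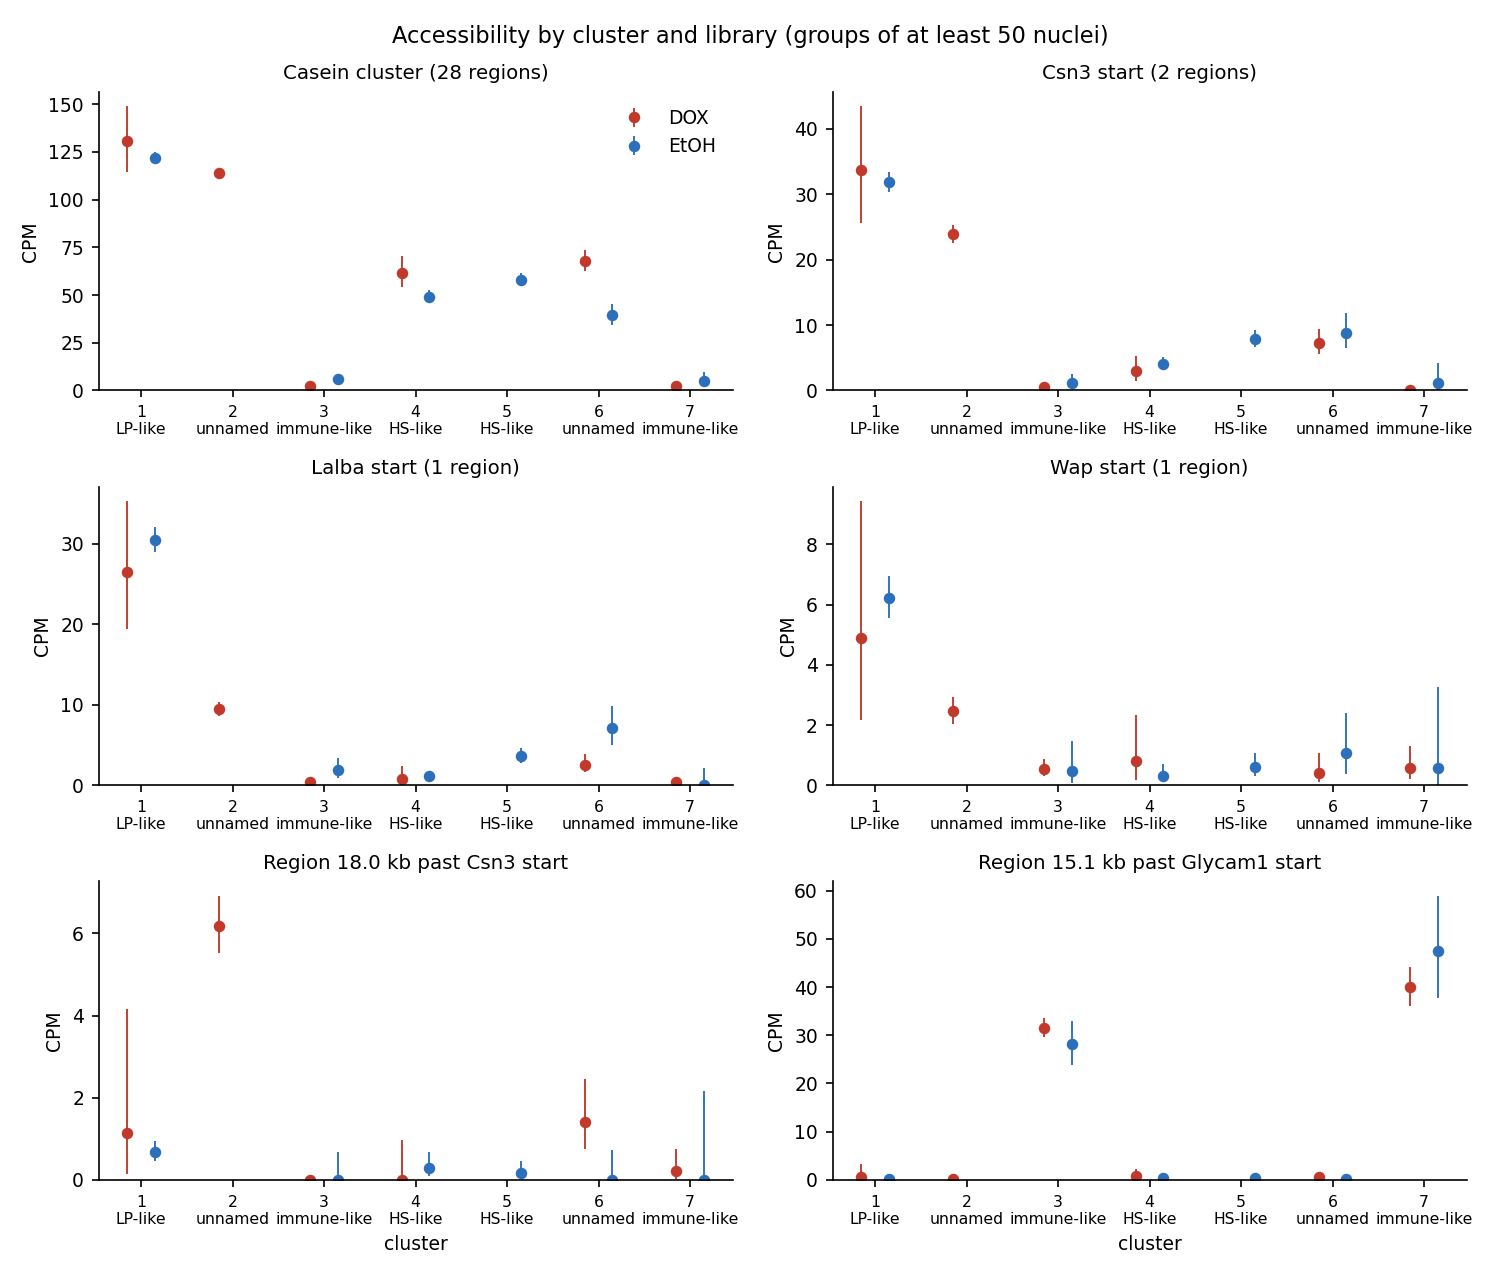
CPM with 95% Poisson intervals for the casein cluster and 5 milk protein gene features in each cluster with at least 50 nuclei of the library, DOX and EtOH side by side (LP, luminal progenitor; HS, hormone-sensing luminal). The Lalba start is near 30 CPM in the EtOH nuclei of cluster 1 and 9.42 CPM in the DOX nuclei of cluster 2, and the region past Glycam1 is open in the immune-like clusters of both libraries.

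Shares of nuclei with a count in the locus were also compared. Each nucleus was thinned to 10000 counts, and 138 DOX and 118 EtOH nuclei with fewer were left out. A count in the casein cluster was then present in 33.8% (32.0 to 35.5) of DOX and 44.4% (42.6 to 46.2) of EtOH nuclei. Without thinning the shares were 50.5% and 72.8%. Outside the immune-like clusters 57.8% (55.4 to 60.2) of DOX and 48.7% (46.8 to 50.6) of EtOH nuclei had one, against a background of 1.44% (0.85 to 2.26) and 2.18% (0.80 to 4.69) in the immune-like nuclei, whose median depths were 75911.5 and 54253 counts. The share was 59.1% in the EtOH nuclei of cluster 1 and 61.3% in the DOX nuclei of cluster 2, where the intervals (56.6 to 61.5 and 58.6 to 64.0) overlapped.

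At the Lalba start the order was kept outside the immune-like clusters. A count was present in 5.89% (4.81 to 7.12) of DOX and 13.5% (12.3 to 14.9) of EtOH nuclei there, with 0.24% and 1.09% in the immune-like nuclei. In the EtOH nuclei of cluster 1 the share was 21.6% (19.6 to 23.8) and in the DOX nuclei of cluster 2 it was 6.60% (5.31 to 8.10). At the Csn3 start 15.4% (13.7 to 17.2) of DOX and 15.05% (13.7 to 16.4) of EtOH nuclei had a count outside the immune-like clusters. At the Wap start these were 1.78% (1.21 to 2.54) and 3.65% (2.98 to 4.43), with 0.56% and 0.36% in the immune-like nuclei.

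Over all nuclei the milk protein gene regions moved at least 2-fold about as often as the shared regions of the whole series. All 44 shared regions had at least 100 counts over both libraries. Of these, 6 (13.6%) were at least 2-fold higher in DOX, against 13.0% of 174772 shared regions, and 6 (13.6%) were at least 2-fold lower, against 13.4%. Outside the immune-like clusters 7 of 44 (15.9%) were at least 2-fold higher, against 5.36% of all regions there, and 3 (6.82%) were at least 2-fold lower, against 8.58%. All 7 of the higher regions lay in the casein cluster, and all 3 of the lower ones in the Lalba window. The median ratio of the 44 regions was −0.23 over all nuclei, beside −0.13 for all shared regions, and 0.07 outside the immune-like clusters, beside −0.06.

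By value alone, the sign of part of the regions depended on the set of nuclei. In the casein cluster 9 of 28 ratios were below 0 over all nuclei and above 0 outside the immune-like clusters, and none went the other way. Only the region 12.2 kb past the Csn1s2b start had intervals on opposite sides of 0, −0.56 to −0.31 and 0.04 to 0.28. Over all nuclei 15 of the 28 intervals lay below 0, 6 lay above and 7 held 0. Without the immune-like nuclei these were 3, 11 and 14. In this locus immune-like nuclei gave at most 5% of a region's counts in DOX and 1.43% in EtOH. Leaving these nuclei out lowered the total used for scaling more in DOX than in EtOH. Ratios of regions with so few immune-like counts had to rise by it, so their common direction is no separate result. Of the 16 shared regions of Wap, Lalba and Glycam1, 5 turned from above to below 0 and 2 from below to above. Among these, only the regions 1.8 kb upstream of Lalba and 12.6 kb past the Glycam1 start had intervals on opposite sides of 0.

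**Figure D4:**
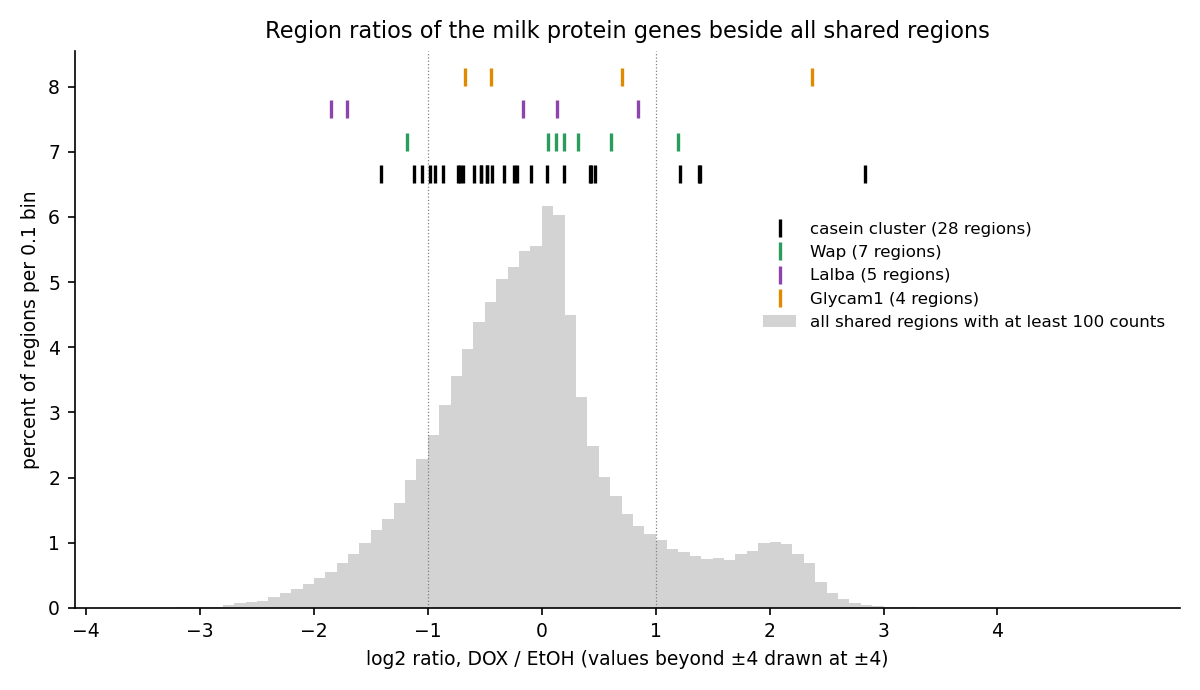
Distribution of the log2 ratio of DOX over EtOH over all nuclei for shared regions with at least 100 counts (grey, percent of regions per bin), with the milk protein gene regions as ticks above; dotted lines mark 2-fold. The ticks spread over the width of the grey distribution, with 6 of 44 at or beyond 2-fold on either side.

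Few promoters of the genes that surround milk protein expression were 2-fold apart, as among the promoters of all protein-coding genes. Of 61 listed lactation genes, 59 had a promoter region (shared by both libraries, at most 1 kb from a TSS). At least 2-fold higher in DOX were 3, against 3.43% of 16339 protein-coding genes, and 0 were at least 2-fold lower, against 1.67%. The median ratio was 0.05, beside 0.09 for all promoters. The 3 were genes of secreted defence and matrix proteins: the lysozyme gene Lyz2 at 1.90 (1.68 to 2.12), the osteopontin gene Spp1 at 1.24 (1.09 to 1.41) and the lactoferrin gene Ltf at 1.12 (0.98 to 1.26). Lyz2 is also a marker of myeloid cells. In the other nuclei they stood at 0.78, 0.13 and 0.97, and no promoter of the lists was 2-fold apart in either direction. Of all 16238 protein-coding promoters there, 128 were 2-fold higher and 134 lower. The median of the 59 was 0.12 there, beside 0.02 for all promoters. Above 0 were 45 of the 59, against 9178 of the 16238.

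In the prolactin pathway all 9 listed genes had promoter regions and none was 2-fold apart. Prlr, the prolactin receptor gene, had 16.8 CPM in DOX and 27.7 CPM in EtOH, a ratio of −0.72 (−0.80 to −0.63), and −0.24 (−0.33 to −0.15) outside the immune-like clusters. Jak2 was at 0.30 (0.24 to 0.35) and 0.08 (0.01 to 0.15), Stat5a at −0.06 (−0.12 to 0.00) and 0.01 (−0.06 to 0.08), and Stat5b at 0.41 (0.33 to 0.49) and −0.11 (−0.21 to −0.00). Nr3c1, the glucocorticoid receptor gene, was at 0.22 and 0.03. Among the 10 alveolar transcription factors, Elf5 had a ratio of −0.24 (−0.33 to −0.15) over all nuclei and 0.12 (0.02 to 0.21) outside the immune-like clusters, and Gata3 −0.18 (−0.22 to −0.13) and 0.04 (−0.01 to 0.09). Within the 18 milk fat and secretory genes with a promoter region and the 9 genes of other signalling, no ratio reached 2-fold over all nuclei.

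Across the 12 groups of nuclei formed by cluster and library with at least 50 nuclei each, the casein cluster ranged from 1.78 to 7.04 on the log2(CPM + 1) scale. The immune-like groups formed the low end of this range and enter every correlation. Of 17392 genes with at least 500 counts, 4 of the 5 whose accessibility over the gene body and 2 kb upstream was most like it were Nap1l3, Amotl2, Tc2n and Mme, each with Pearson's r of 0.99 as printed. Mme encodes the membrane peptidase neprilysin and Amotl2 a protein of the angiomotin family. The groups come from only 2 libraries and share their depth, so r is a description. Elf5 had 0.89, Prlr 0.86, Stat5a 0.79 and Wap 0.59. Stat5b had −0.57, Lalba −0.30 over its whole body and upstream sequence, and the leukocyte gene Ptprc −0.97. The Lalba value takes in the region 1.8 kb upstream, with 93.8% of its DOX and 65.4% of its EtOH counts from immune-like nuclei. It therefore does not describe the Lalba start alone. With the 14 groups of at least 20 nuclei Stat5a had 0.32 and Stat5b −0.52.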

How the data were processed

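Single-cell ATAC-seq (10x Chromium) was measured in 1 DOX and 1 EtOH library. Per the file headers the authors ran Cell Ranger ATAC 2.0.0, and per the labels the build was mm10. The deposited values are raw counts of transposition events per peak and nucleus, from peaks called in each library alone, so a place without a peak has no count. Peaks overlapping by at least 1 base were merged, and only regions with a peak of both libraries (94.5% of DOX and 94.7% of EtOH counts) gave ratios, scaled to the counts in these 174940 regions. Most values were even, as both ends of a fragment are counted, so intervals (exact binomial, exact Poisson, Clopper-Pearson, 95%) were taken on counts divided by 2, a choice made after seeing the values. With 1 library per group no test between conditions was possible. Intervals cover counting error only.

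Gene models were GENCODE M21 and sequences GRCm38.p6, the same build. Promoters of 6 of the 8 genes matched the RefSeq table, and that of Csn3 was read from the genome. Nuclei were clustered by TF-IDF and latent semantic components 2 to 30, 15 neighbours and Leiden resolution 0.5, with the 44 shared milk protein gene regions left out. No nuclei were removed as doublets. A doublet score from simulated pairs of nuclei served as an alternative, leaving out the 5% with the highest score in each library. A cluster was named where a marker list had a median log2 fold of at least 0.3 and led the next lineage by at least 0.3, a lead set after seeing the marker values. Members and lists were chosen with earlier results of these data known. Regions named are the deepest, highest and lowest ratio of each gene, those at gene starts and the deepest peaks of 1 library. Of the 5 genes most like the casein cluster, 1 is not reported here. The regions by cluster and the Odam region were chosen after their values were seen. Alternatives were another scaling, window and clustering, thinning, equal numbers of nuclei and leaving out nuclei or regions, of which the casein cluster without the Csn3 window and genes without regions at other genes' TSS were added after seeing the data. Python 3.11.15, numpy 2.4.6, scipy 1.17.1, pandas 2.3.3, scikit-learn 1.9.0, igraph 0.11.9, leidenalg 0.10.2 and matplotlib 3.10.9 were used, and scripts were tested on simulated data.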

Additional observations from a re-analysis of the deposited data

Results flagged for a closer look

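The casein cluster had ratios of opposite sign in 2 clusters of nuclei, in 1 of which the locus was nearly closed. On the log2 scale DOX stood above EtOH in cluster 6, at 0.78 (0.55 to 1.02). It stood below EtOH in the immune-like cluster 3, at −1.24 (−1.85 to −0.60). There the locus had only 160 counts in DOX, 2.50 CPM, and 64 in EtOH, 5.89 CPM. Immune-like nuclei served above as the background, so this second ratio is one of background counts. The difference between these clusters was not tested, as each has 1 library per group.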

How the results depend on the processing

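No paired analysis was possible because neither group has a second library. For the casein cluster the log2 ratio of −0.40 became −0.27 with median scaling, −0.50 without the 5% of nuclei with the most counts, −0.49 with a 50 kb window and −0.31 without the Csn3 window. Leaving out the 5% of nuclei with the highest doublet score gave −0.40. The ratio turned to 0.20 outside the immune-like clusters and to 0.31 with equal numbers of nuclei per cluster (574 per library). The count of regions at least 2-fold higher was 2 with equal numbers, and that of lower regions was 3 outside the immune-like clusters, 1 with equal numbers and 14 at 1.5-fold. With median scaling the casein ratio outside the immune-like clusters went from 0.20 to 0.26. The share of nuclei with a casein count was 43.9% in DOX and 61.9% in EtOH when thinned to 20000 counts, and 50.5% and 72.8% unthinned. Outside the immune-like clusters 0 of 59 lactation promoters were 2-fold higher, against 128 of 16238 protein-coding promoters. With 14 groups, 1 of the 5 genes most like the casein cluster was kept. The sign of the value also turned for Csn1s2a (0.37 and 0.66 for the window, 0.12 and 0.32 for its promoter), Csn1s2b (0.34 and 0.73, promoter 1.19), Csn3 (0.082, promoter 0.0095) and Glycam1 (−0.10 and −0.045), outside the immune-like clusters or with equal numbers. Intervals outside the immune-like clusters held 0 for the promoters of Csn1s2a (−0.23 to 0.47) and Csn3 (−0.09 to 0.11) and for Glycam1 (−0.29 to 0.08). The Csn1s2b promoter, here the region 4.5 kb past the gene start, did not turn outside the immune-like clusters, at −0.39 (−0.90 to 0.10). Wap turned to −0.047 outside the immune-like clusters, where the interval held 0 (−0.11 to 0.02), and to −1.18 within 5 kb. The cause was not tested. Depth limits the single regions with fewest counts, such as that 24.1 kb upstream of Csn2 with 44 counts in DOX.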
